A study of Rattus norvegicus with 8 samples.

Results

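The genes described here encode the protein factors that start and extend translation on cytosolic ribosomes, with a few of their regulators. Members were the rows of the gene table whose symbol begins with Eif1 to Eif6 or with Eef1 or Eef2 and which reached 1 CPM, with CPM being reads scaled to the library total, in at least 4 of the 8 libraries. Of 30240 rows, 70 matched by symbol and 58 of those met the level condition, which also defined the 6849 genes tested. The other 12 matching rows stayed under it, 1 of them (Eif6-ps1) with 0 reads. The suffix -ps of an annotated pseudogene was carried by 7 matching rows, of which 2 (Eif3i-ps1 and Eif4g1-ps1) were members.

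The RNA came from SF2, an epithelial line from the cervical loop of the rat lower incisor, the growing base of the tooth from which enamel-forming ameloblasts arise. One set of cells was AmeloD-overexpressing (AmeloD is a transcription factor of the helix-loop-helix family, encoded by Ascl5) and the other was labelled Control. Each genotype was combined with the plasmid label pCMV6.ODAM (named for Odam, odontogenic ameloblast-associated protein) or pCMV6 and with the label TGF or N. The 8 combinations had 1 library each, so each level of a factor was carried by 4 libraries and no combination was replicated. All groups thus share the SF2 line and a pCMV6-type plasmid label. How AmeloD was overexpressed, whether either line is a single clone, and what N and TGF stand for in detail are nowhere stated in the labels. Nothing says that the libraries came from separate cultures, so p values measure the spread between these libraries, which may be technical.

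Translation begins when eIF2 brings the initiator tRNA to the small ribosomal subunit, with eIF1, eIF1A and the large eIF3 scaffold guiding the search for the start codon. The eIF4 group binds and unwinds the capped mRNA, eIF5 and eIF5B complete the joining of subunits, and eEF1 and eEF2 then deliver each aminoacyl-tRNA and move the ribosome forward. Activity of these factors is classically adjusted through phosphorylation of eIF2 alpha and through the eIF4E-binding proteins, while mRNAs of many translation proteins carry a pyrimidine run at the 5' end (a terminal oligopyrimidine) that ties their translation to the mTORC1 kinase.

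That kind of run is visible at some annotated starts of the members, and the sequences of Eif3f, Eif1 and Eif2s3y, which changed with AmeloD, are shown here. Eif3e and Eif3h also changed but had no entry in the promoter table, so whether they hold a run is not known. Eif2s3 is the X-linked copy of Eif2s3y, Eif5a2 and Eif5a are a pair of paralogs, and Eef1a1 is a textbook example of a terminal oligopyrimidine mRNA. Each is 75 bases before and 25 bases after the annotated start on the gene's strand, 5' to 3', from RefSeq on the build GRCr8, which is not the build of the read table. A run was counted where a C within 10 bases of the start is followed by at least 4 bases of C or T, and capitals mark the whole unbroken stretch of C and T from its first C. Eif5a has none, and only the gene's own strand was searched because the run is a feature of the mRNA.
Eif3f chr1:172368987-172369086 (+): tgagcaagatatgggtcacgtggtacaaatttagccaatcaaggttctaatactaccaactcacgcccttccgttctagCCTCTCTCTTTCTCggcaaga
Eif1 chr10:85747062-85747161 (+): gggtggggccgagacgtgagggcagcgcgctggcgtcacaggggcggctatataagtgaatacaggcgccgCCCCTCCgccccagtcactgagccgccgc
Eif2s3y chrY:944578-944677 (+): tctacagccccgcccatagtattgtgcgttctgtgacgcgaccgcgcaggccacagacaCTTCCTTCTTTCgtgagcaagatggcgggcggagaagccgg
Eif2s3 chrX:62933675-62933774 (-): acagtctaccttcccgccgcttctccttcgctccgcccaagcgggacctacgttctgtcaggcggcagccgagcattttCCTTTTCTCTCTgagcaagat
Eif5a2 chr2:113657759-113657858 (+): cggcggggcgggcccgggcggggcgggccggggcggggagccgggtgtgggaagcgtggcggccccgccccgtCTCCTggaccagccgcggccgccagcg
Eif5a chr10:55143197-55143296 (-): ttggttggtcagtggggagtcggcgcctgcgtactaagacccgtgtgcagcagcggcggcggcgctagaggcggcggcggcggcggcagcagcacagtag
Eef1a1 chr8:88225045-88225144 (-): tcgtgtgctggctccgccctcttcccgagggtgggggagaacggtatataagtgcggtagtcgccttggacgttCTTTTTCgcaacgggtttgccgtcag

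The run is 14 bases long in Eif3f, 12 in Eif2s3 and Eif2s3y, 7 in Eif1 and Eef1a1 and 5 in Eif5a2. It begins at base 5 of the annotated transcript in Eif3f and Eif2s3, and that of Eif2s3y lies wholly before the annotated start. In Eif1, Eif5a2 and Eef1a1 it begins at bases -4, -2 and -1 from that start. Of the 58 members 52 had an entry in the promoter table, and 19 of these (36.5%) held such a run, against 28.8% of all 27457 promoters in it. The median log2 difference between AmeloD and Control was 0.06 for the 19 members with the run and 0.10 for the 33 without it, values that describe these members only and carry no test. A match is a description of these letters near an annotated start and does not show where transcription begins in SF2 cells.

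Library totals were 10568146 to 13668736 reads in AmeloD and 14766931 to 17775226 in Control, so that depth by total differed with genotype without overlap. Reads in the table numbered 1662973 to 2346712 in AmeloD and 2309450 to 2854134 in Control, and these ranges overlapped. Where depth is named below, the totals are meant. Values of 4 libraries always follow this order: pCMV6 with N, pCMV6.ODAM with N, pCMV6.ODAM with TGF, and pCMV6 with TGF. Ascl5 had 0 reads in all 8 libraries, which in a 3'-end library neither checks nor contradicts the AmeloD label if the construct lacks the native 3' end. Odam reads numbered 31 with the pCMV6.ODAM label, of which 4 were in AmeloD, and 1 with the pCMV6 label. Of dental epithelial markers, 6 of 8 listed genes were tested and 4 were higher in AmeloD (Krt5, Krt17, Cdh1 and Epcam), with listed genes summing to 754 to 857 CPM in AmeloD and 518 to 663 CPM in Control. Of 7 fibroblast markers only Col3a1 was tested and it was lower in AmeloD; the list summed to 17.4 to 26.4 CPM in AmeloD and 33.4 to 63.0 CPM in Control, with Col1a2, Dcn, Lum and Thy1 at 0 reads. Of 6 leukocyte markers only Cd68 was tested and it was higher in AmeloD (list sums 2.77 to 3.73 CPM against 0.876 to 1.63 CPM in Control, Tyrobp at 0 reads), and endothelial markers summed to 0.593 to 2.05 CPM in AmeloD and 1.01 to 1.95 CPM in Control, with Kdr and Tek at 0 reads. The part of these markers, and of depth, in the differences given next was not tested.

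In AmeloD cells, 3 subunit genes of the eIF3 scaffold and the start codon factor Eif1 were higher than in Control cells, and the Y-linked copy of the eIF2 gamma gene was lower; no other member passed the test. Eif3f was 1.72-fold higher (30.1 ± 3.26 CPM in AmeloD against 17.5 ± 2.10 CPM in Control; SD, n = 4 each), Eif3e 1.64-fold (14.0 ± 1.55 against 8.58 ± 0.735 CPM), Eif3h 1.41-fold (20.8 ± 1.92 against 14.7 ± 1.11 CPM) and Eif1 1.26-fold (109 ± 15.8 against 86.6 ± 7.88 CPM). Eif2s3y was at 2.25 ± 1.10 CPM in AmeloD and 4.32 ± 0.719 CPM in Control. In all, 5 of 58 members (8.62%) passed, against 13.8% of all tested genes: 4 were higher (background 9.07%) and 1 was lower (background 4.75%). An unadjusted p under 0.05 was had by 16 members (13 higher, 3 lower), against 27.0% of all genes. The members' share of calls was thus no larger than that of all genes. The SD of a group includes the differences made by the plasmid and TGF labels, and in bulk RNA fewer cells with a transcript and less transcript per cell cannot be told apart.

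Log2 changes are differences of log2(CPM + 1) ± SE, a scale that shrinks the change of genes with few reads, with limma adjusted p values over all 6849 genes and a threshold of 0.05. Over the 58 members the median change was 0.09, against 0.05 over all tested genes, and 40 members lay above 0 and 18 below (57.0% of all genes lay above 0). With the libraries scaled by TMM, to the same median, by edgeR or by DESeq2, 31 members lay above 0 and 27 below. Those scalings also move the split of all calls, which was 65.6% higher as deposited and 52.9%, 49%, 54.2% and 53.3% higher under those 4 in turn. Scaled to the reads in the table, 36 members lay above 0 and 22 below, and 61.5% of calls were higher. Summed over the members, reads made up 0.879%, 0.806%, 0.905% and 0.755% of the table's reads in AmeloD and 0.821%, 0.800%, 0.792% and 0.720% in Control, so the ranges of the genotypes overlapped. Between libraries of the same plasmid and TGF label, the AmeloD share was the higher each time, which was not tested.

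**Figure D1:**
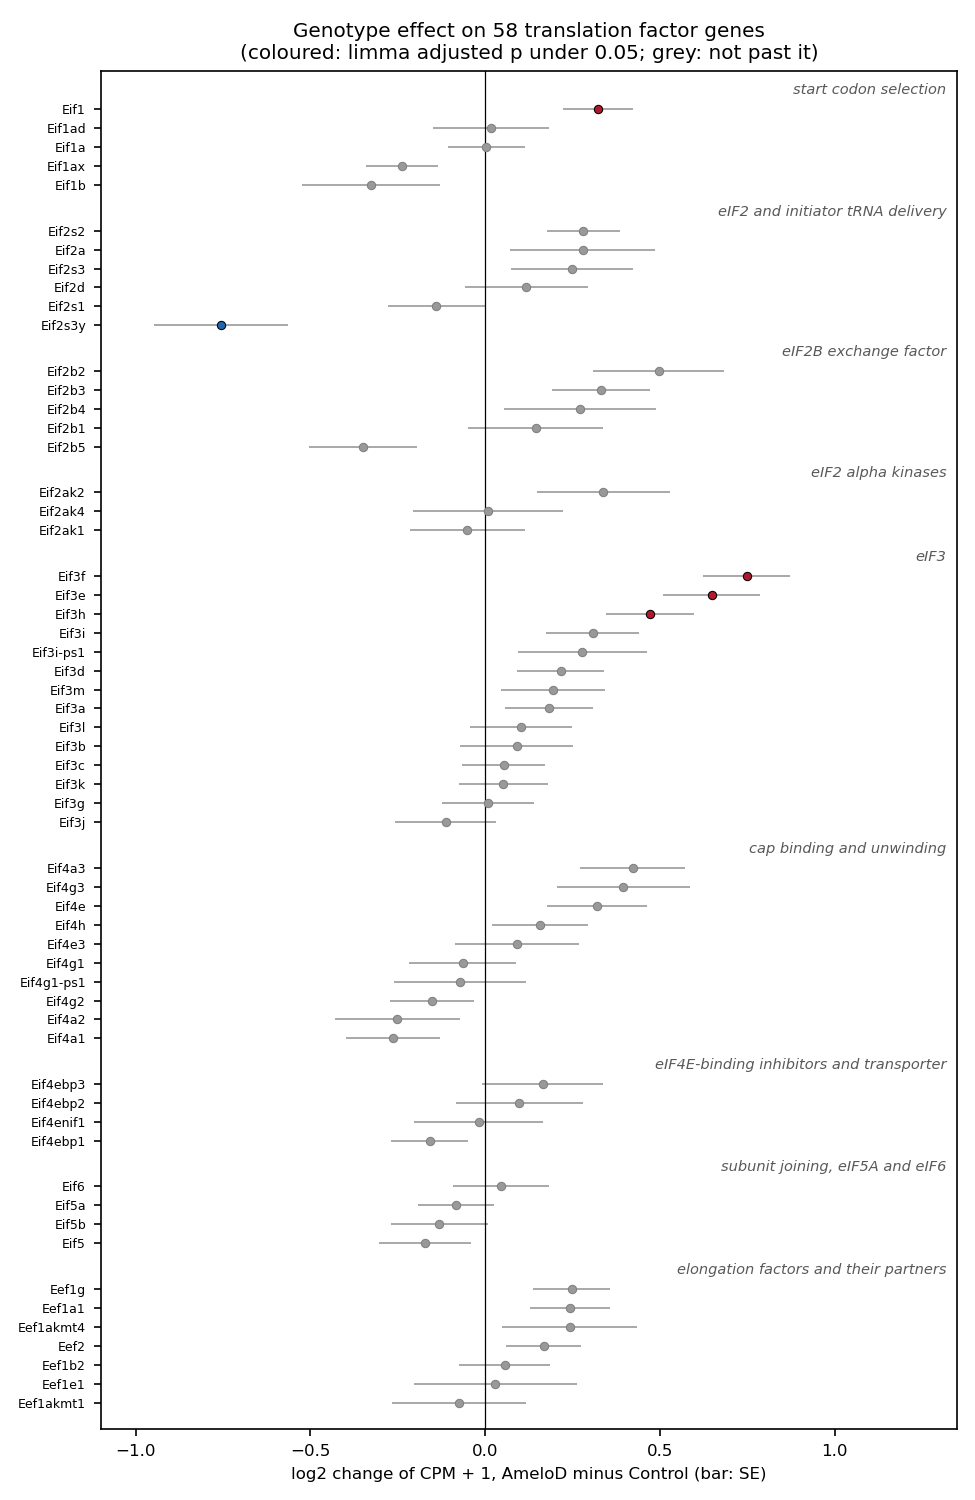
Log2 change of CPM + 1 in AmeloD minus Control (horizontal axis, bars are SE) for the 58 members, grouped by role and ordered by size within a role. Coloured points passed limma's adjusted p of 0.05; Eif3f, Eif3e and Eif3h lead the eIF3 group, Eif1 is the other rise and Eif2s3y the only fall.

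Among members with no overlap between genotypes, 4 had every AmeloD library above every Control library (Eif3f, Eif3e, Eif3h and Eif4a3; 9.49% of all genes did so) and 2 had every AmeloD library below (Eif2s3y and Eif2b5; 5.53% of all genes). Libraries of the same plasmid and TGF label form 4 matched pairs. The AmeloD library was the higher in all 4 pairs for 15 members (25.9%, against 20.6% of all genes) and the lower in all 4 for 2 members (3.45%, against 12.6%).

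The eIF3 genes encode the scaffold that holds the small subunit, eIF2 and the mRNA-bound eIF4G together. Of 14 eIF3 members, 3 rose, 0 fell and 11 did not pass (9.07% of all genes rose and 4.75% fell), with a median change of 0.19; 13 lay above 0 as deposited, 12 when scaled to the reads in the table and 10 under each of the 4 scalings named above. Eif3f (ENSRNOG00000015221, chromosome 1, 162934212 to 162943204 in mRatBN7.2) encodes a subunit with an MPN domain. It had 32.3, 30.0, 32.6 and 25.5 CPM in AmeloD, against 19.9, 17.8, 17.5 and 14.8 CPM in Control. Every AmeloD library lay above every Control library, and within each genotype the pCMV6 TGF library was the lowest. Eif3f rose by 0.75 ± 0.12 (adjusted p = 0.000140), with 0.67, 0.72, 0.86 and 0.75 in the 4 matched pairs, and it passed under each alternative run, including the omission of any library.

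Eif3e (ENSRNOG00000027690, chromosome 7, 74339828 to 74373096) encodes a PCI-domain subunit, the product of the mouse Int6 locus. It had 15.4, 12.8, 12.6 and 15.3 CPM in AmeloD, against 8.70, 7.86, 9.55 and 8.21 CPM in Control. The groups did not overlap; the pCMV6.ODAM TGF pair was the closest, with a difference of 0.36 against 0.64 to 0.83 in the other pairs. Eif3e rose by 0.65 ± 0.14 (adjusted p = 0.00202). Eif3h (ENSRNOG00000004252, chromosome 7, 83091039 to 83174451) encodes the other MPN-domain subunit, the partner of eIF3f. It had 21.2, 19.1, 23.3 and 19.5 CPM in AmeloD, against 14.3, 14.8, 16.2 and 13.6 CPM in Control. Again no library crossed over, and pCMV6.ODAM TGF was the highest in both genotypes. Eif3h rose by 0.47 ± 0.13 (adjusted p = 0.0122), but did not pass without AmeloD pCMV6 N or without Control pCMV6 TGF (largest adjusted p 0.0679). In the TGF libraries alone or the pCMV6.ODAM libraries alone, neither Eif3e nor Eif3h passed, and Eif3h did not pass in the N libraries alone. None of Eif3f, Eif3e and Eif3h overlaps an exon of another gene in the table.

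**Figure D2:**
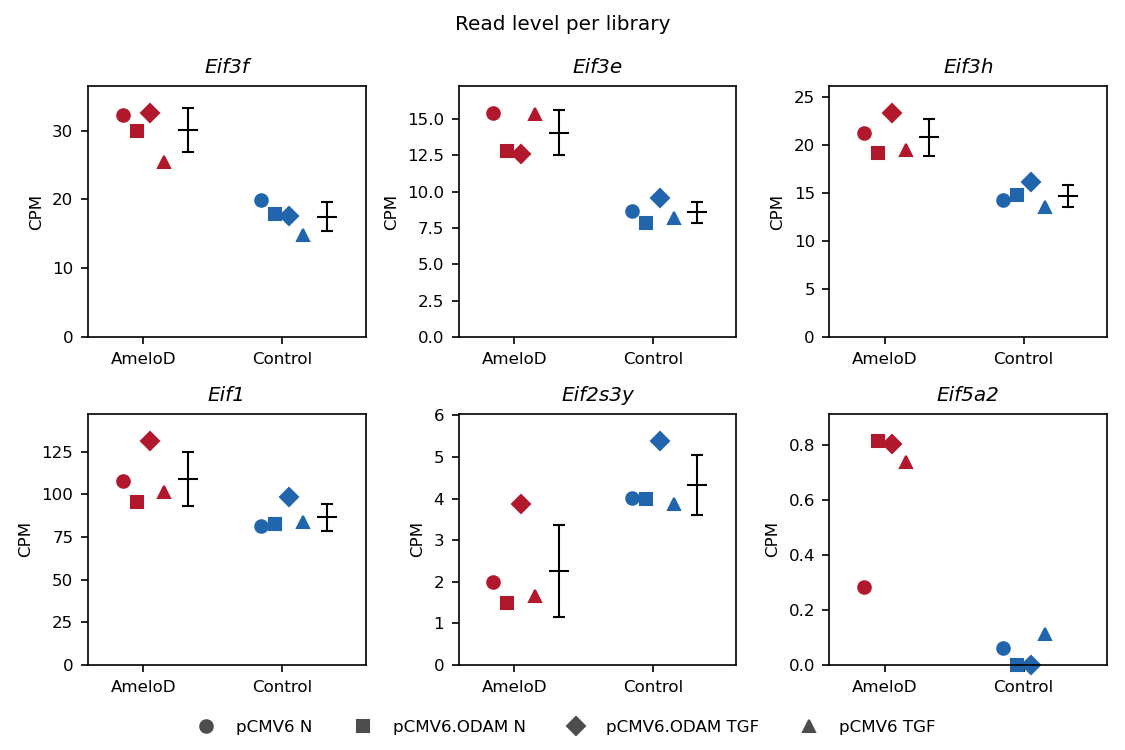
CPM (vertical axis, from 0) in each library, AmeloD left and Control right, of the 5 members that passed the genotype test and of Eif5a2, which lay under the level condition. Symbols mark the plasmid and TGF labels, and the bars beside the points are mean and SD over 4 libraries (none drawn for Eif5a2); the genotypes overlap for Eif1 only.

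The remaining eIF3 genes did not pass. Eif3a, the largest subunit and a core of the complex, had 59.0, 38.4, 31.5 and 47.0 CPM in AmeloD, against 41.0, 34.9, 39.5 and 35.5 CPM in Control. Its difference of 0.18 ± 0.13 (adjusted p = 0.386) was carried by the pCMV6 pairs, while the pCMV6.ODAM TGF pair went the opposite way; in the pCMV6 libraries alone it passed (adjusted p = 0.00781). Eif3i, a WD-repeat subunit, was higher in AmeloD in all 4 pairs (16.6 ± 2.54 against 13.2 ± 1.81 CPM; 0.31 ± 0.13, adjusted p = 0.128), and the row of its pseudogene Eif3i-ps1 stood at 2.53 ± 0.323 against 1.94 ± 0.551 CPM. The labels do not say how reads shared by such copies were counted. Eif3c, another core subunit, was at 56.3 ± 16.2 CPM in AmeloD and 53.1 ± 6.69 CPM in Control, and its AmeloD spread came from the pCMV6.ODAM TGF library at 80.4 CPM. Eif3d, Eif3m, Eif3l, Eif3b, Eif3k, Eif3g and Eif3j had changes between -0.11 (Eif3j) and 0.22 (Eif3d).

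**Figure D3:**
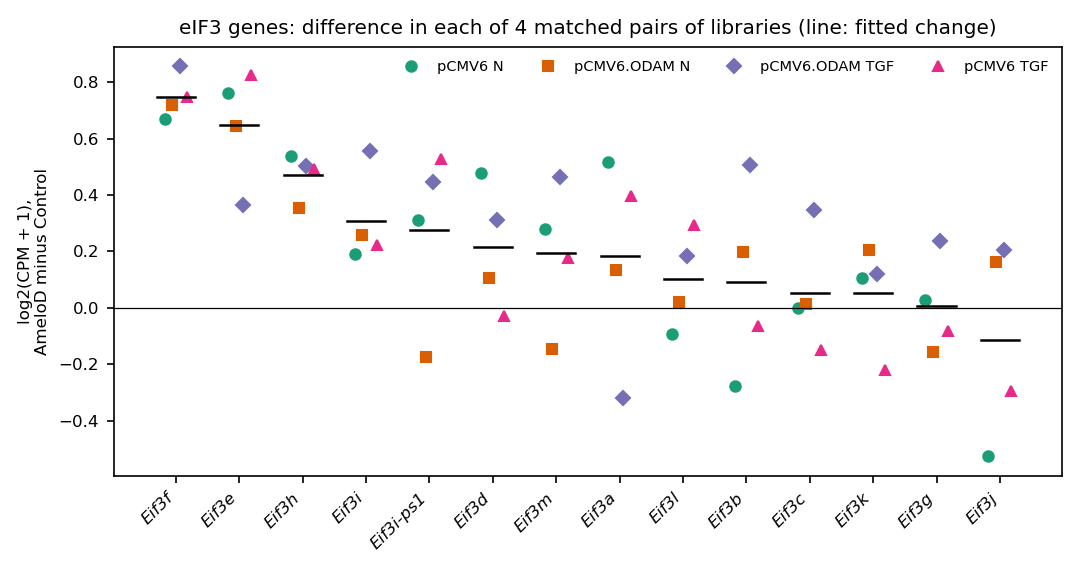
Difference of log2(CPM + 1), AmeloD minus Control, in each of 4 matched pairs of libraries (symbols) for the 14 eIF3 genes, with the fitted change as a line. All 4 pairs lie above 0 for Eif3f, Eif3e, Eif3h and Eif3i, and the pairs of most other subunits lie on both sides of 0.

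The 5 members with symbols beginning with Eif1 were grouped under start codon selection. That grouping follows the symbol, and a role of Eif1ad in that step was not tested. Of the 5, 1 rose, 0 fell and 4 did not pass (9.07% of all genes rose and 4.75% fell). Eif1 (ENSRNOG00000033765, chromosome 10, 85246764 to 85427327) encodes the factor that keeps the scanning ribosome from starting at wrong codons. It had 108, 95.7, 132 and 101 CPM in AmeloD, against 81.6, 82.7, 98.4 and 83.9 CPM in Control. The pCMV6.ODAM TGF library was the highest of each genotype, and the Control one lay above the AmeloD pCMV6.ODAM N library, so the genotypes overlapped. Eif1 rose by 0.32 ± 0.10 (adjusted p = 0.0332), higher in all 4 pairs. The call did not hold with TMM, the same median, edgeR, DESeq2, no filter, no trend, or in the N, the TGF or the pCMV6.ODAM libraries alone (adjusted p 0.0167 to 0.283 over all alternatives), and it was lost without any 1 of AmeloD pCMV6 N, AmeloD pCMV6.ODAM TGF, Control pCMV6 N, Control pCMV6.ODAM N or Control pCMV6 TGF. Its gene model overlaps exons of Fkbp10 on the same strand, which had 58 reads in all.

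Eif1ax and Eif1a encode near-identical forms of eIF1A, the partner of eIF1 in scanning. Eif1ax, on the X chromosome, had 62.6, 64.8, 54.8 and 49.98 CPM in AmeloD, against 62.5, 81.5, 70.8 and 60.4 CPM in Control. The pCMV6 N pair was level and the other 3 pairs were lower in AmeloD, with overlap between the genotypes. The difference of -0.24 ± 0.10 did not pass (adjusted p = 0.128) as deposited, and it passed as a fall with TMM, the same median and DESeq2 (adjusted p 0.0499, 0.0395 and 0.0440; edgeR did not pass it). Eif1a was at 35.9 ± 3.15 CPM in AmeloD and 35.9 ± 3.66 CPM in Control. Eif1ad stood at 5.92 ± 1.48 against 5.78 ± 1.001 CPM, and Eif1b, a paralog of Eif1, at 1.45 ± 0.767 against 2.00 ± 0.488 CPM (-0.33 ± 0.20, adjusted p = 0.310; 0.0481 in the N libraries alone).

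Of the 6 genes for eIF2 and related delivery of initiator tRNA, 0 rose, 1 fell and 5 did not pass (9.07% of all genes rose and 4.75% fell). The gamma subunit, which binds GTP and the initiator tRNA, is encoded by an X-linked copy, Eif2s3, and a Y-linked copy, Eif2s3y. Eif2s3y (ENSRNOG00000060048, chromosome Y, 869689 to 889340) had 1.99, 1.48, 3.88 and 1.66 CPM in AmeloD, against 4.01, 4.00, 5.39 and 3.88 CPM in Control. The highest AmeloD value lay just under the lowest Control value, and the pCMV6.ODAM TGF library was the highest of both genotypes. Eif2s3y changed by -0.75 ± 0.19 (adjusted p = 0.00836), lower in all 4 pairs; the reads numbered 112 for AmeloD and 275 for Control. The call was lost without AmeloD pCMV6.ODAM N or without Control pCMV6 N (largest adjusted p 0.0620), and in the TGF or the pCMV6.ODAM libraries alone.

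The X copy Eif2s3 had 3.501, 3.26, 4.10 and 3.60 CPM in AmeloD, against 2.75, 3.12, 3.57 and 2.19 CPM in Control. It was higher in AmeloD in all 4 pairs with overlapping groups, and did not pass (0.25 ± 0.17, adjusted p = 0.392). Of the reads on the pair of copies, the Y copy held 36.2%, 31.3%, 48.6% and 31.6% in AmeloD, against 59.3%, 56.2%, 60.1% and 63.9% in Control, with no overlap. Summed over both copies the levels were 5.49, 4.75, 7.97 and 5.27 CPM in AmeloD and 6.76, 7.11, 8.97 and 6.08 CPM in Control. The 8 other rows of the Y chromosome with any read held 63 reads in AmeloD and 115 in Control and none was tested, among them Uty (12 against 37 reads), Ddx3 (18 against 35) and Kdm5d (12 against 13). These reads are not scaled to depth, and the Control libraries were the deeper. Whether reads of the X and Y copies were assigned apart depends on how shared reads were counted, which the labels do not say.

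The alpha subunit gene Eif2s1, whose product is the target of the stress kinases, had 18.4, 26.7, 15.7 and 18.02 CPM in AmeloD, against 20.3, 20.5, 22.6 and 22.1 CPM in Control. Only its pCMV6.ODAM N pair was higher in AmeloD, and the difference was -0.14 ± 0.14 (adjusted p = 0.583). The beta subunit gene Eif2s2 had 128, 114, 147 and 107 CPM in AmeloD, against 100, 94.0, 118 and 94.9 CPM in Control. All 4 pairs were higher in AmeloD, the groups overlapped, and the change of 0.28 ± 0.10 did not pass (adjusted p = 0.0764; 0.0320 with the matched pairs as a block). Eif2a and Eif2d, alternative carriers of initiator tRNA in vitro, were at 4.01 ± 1.31 against 3.12 ± 1.07 CPM (adjusted p = 0.426; 0.0348 in the N libraries alone) and 3.23 ± 0.447 against 2.93 ± 0.625 CPM.

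The exchange factor eIF2B recharges eIF2 with GTP. Its 5 subunit genes had a median change of 0.27, and none passed. Eif2b5, the catalytic epsilon subunit, had 6.15, 8.23, 5.19 and 7.39 CPM in AmeloD, against 9.20, 8.40, 8.38 and 9.06 CPM in Control. Every AmeloD library lay below every Control library, with a change of -0.35 ± 0.16 (adjusted p = 0.142). The other 4 subunit genes lay above 0: Eif2b2 at 2.38 ± 0.858 against 1.42 ± 0.653 CPM (0.50 ± 0.19, adjusted p = 0.0819) and Eif2b3 at 21.3 ± 6.52 against 16.3 ± 2.05 CPM (0.33 ± 0.14, adjusted p = 0.122) were each higher in all 4 pairs.

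The eIF2 alpha kinases shut down general initiation under stress, and of 3 members none passed. Eif2ak1, the heme-regulated kinase, was at 4.91 ± 0.513 CPM in AmeloD and 5.15 ± 0.821 CPM in Control, and Eif2ak4, the amino acid sensor GCN2, at 2.75 ± 0.678 and 2.85 ± 1.38 CPM. Eif2ak2, the double-stranded RNA sensor PKR, had 1.99, 1.63, 1.68 and 0.739 CPM in AmeloD, against 1.31, 0.880, 0.845 and 0.788 CPM in Control. It was higher in AmeloD in 3 of 4 pairs and did not pass (0.34 ± 0.19, adjusted p = 0.267). Eif2ak3, the endoplasmic reticulum kinase PERK, lay under the level condition with 23 reads in AmeloD and 23 in the deeper Control libraries.

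Cap binding and unwinding was represented by 10 members, of which 0 passed and 5 lay above 0. Eif4e, the cap-binding protein, had 15.9, 14.3, 15.8 and 12.01 CPM in AmeloD, against 10.9, 14.2, 9.29 and 11.5 CPM in Control. It was higher in AmeloD in all 4 pairs, by little in those of pCMV6.ODAM N and pCMV6 TGF (0.32 ± 0.14, adjusted p = 0.145). Eif4a1, the main RNA helicase of initiation, had 11.6, 17.1, 17.05 and 13.1 CPM in AmeloD, against 17.8, 16.4, 18.1 and 18.5 CPM in Control. Its low AmeloD values were those of the pCMV6 libraries (-0.26 ± 0.13, adjusted p = 0.215; 0.0227 in the pCMV6 libraries alone), and Eif4a2, its paralog, stood at 3.74 ± 1.08 against 4.53 ± 0.194 CPM. Eif4a3, a related helicase of the exon junction complex, had 7.38, 8.83, 7.68 and 7.30 CPM in AmeloD, against 5.19, 5.42, 6.11 and 5.51 CPM in Control. Its groups did not overlap, but the change of 0.42 ± 0.15 did not pass (adjusted p = 0.0609); it passed when the test was limited to genes averaging 5 CPM or more (adjusted p = 0.0445). The scaffold gene Eif4g1 was at 8.76 ± 1.49 CPM in AmeloD and 9.16 ± 1.19 CPM in Control, Eif4g2, which supports cap-independent initiation, at 43.4 ± 8.83 and 47.8 ± 5.85 CPM, and Eif4g3 at 2.33 ± 0.485 and 1.55 ± 0.518 CPM (0.40 ± 0.19, adjusted p = 0.179).

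None of the 4 genes for eIF4E-binding inhibitors and the eIF4E transporter passed. Eif4ebp1, the main mTORC1-controlled inhibitor of eIF4E, had 71.2, 63.7, 93.0 and 61.7 CPM in AmeloD, against 75.2, 77.5, 88.7 and 78.5 CPM in Control. Only the pCMV6.ODAM TGF pair was higher in AmeloD (-0.16 ± 0.11, adjusted p = 0.389). Eif4ebp2 was at 1.52 ± 0.466 CPM in AmeloD and 1.34 ± 0.212 CPM in Control, and Eif4ebp3 at 3.73 ± 0.695 and 3.20 ± 0.441 CPM. The row of Eif4ebp3 runs from 28162311 to 28268024 on chromosome 18 with 9553 exon bases. Which part of that row its reads came from was not tested.

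Factors of subunit joining with eIF5A and eIF6 were 4 members, none of which passed. As deposited 1 lay above 0, as did 1 when scaled to the reads in the table. With TMM, the same median, edgeR or DESeq2, 0 did. Eif5, the GTPase activator of eIF2, was at 19.7 ± 1.71 CPM in AmeloD and 22.6 ± 4.91 CPM in Control. Eif5b, the GTPase of subunit joining, was at 10.2 ± 0.805 and 11.3 ± 1.47 CPM, and Eif6, which keeps the large subunit from joining too early, at 16.0 ± 3.48 and 15.3 ± 1.06 CPM. Eif5a, the hypusine-bearing factor that helps ribosomes past difficult peptide bonds, had 72.8, 79.5, 101 and 74.8 CPM in AmeloD, against 95.3, 82.4, 91.7 and 77.0 CPM in Control. The groups overlapped (-0.08 ± 0.11, adjusted p = 0.689). Its exons overlap those of Gps2 on the opposite strand, and the labels do not say whether counting used strand.

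The paralog Eif5a2 lay under the level condition and had 3, 11, 11 and 8 reads in AmeloD, against 1, 0, 0 and 2 reads in Control. Every AmeloD library held more reads than any Control library, though the AmeloD libraries were the shallower. Scaled to the library totals, 33 against 3 reads are a ratio of 14.5, with an exact 95% interval of 4.54 to 73.8 that covers counting error only. Without the level condition, in a fit of 17287 genes in which 4.34% passed, limma gave a rise of 0.66 (adjusted p = 0.00730), edgeR an adjusted p of 0.000971 and DESeq2 0.0243; the gene was singled out after its values were seen. Eef2k, the kinase that inhibits eEF2, also lay under the condition. It had 6, 5, 11 and 5 reads in AmeloD, against 1, 8, 3 and 2 reads in Control, so the genotypes overlapped. The pCMV6.ODAM N pair was lower in AmeloD (0.371 against 0.542 CPM). Scaled to the library totals, 27 against 14 reads are a ratio of 2.54 (exact 95% interval 1.29 to 5.24, counting error only). Eef2k did not pass in that limma fit without the level condition (adjusted p = 0.257). Of rows just under the condition, the highest library values were 0.852 CPM (Eif5-ps1), 0.816 CPM (Eif5a2) and 0.805 CPM (Eef2k), while members just over it included Eif4enif1 at 0.745 to 1.46 CPM, Eif4e3 at 0.563 to 1.41 CPM and Eif2b1 at 0.563 to 1.56 CPM.

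Elongation factors and their partners were 7 members, none of which passed. As deposited 6 lay above 0, as did 6 when scaled to the reads in the table. With TMM, the same median, edgeR or DESeq2, 4 did. Eef1a1, which delivers aminoacyl-tRNA, had 40.4, 37.1, 39.7 and 33.2 CPM in AmeloD, against 32.04, 30.1, 33.7 and 30.4 CPM in Control. It was higher in AmeloD in all 4 pairs, and only the AmeloD pCMV6 TGF library fell within the Control range (0.24 ± 0.11, adjusted p = 0.167). Its exons overlap those of an unnamed gene on the opposite strand, which had 1217 reads. Eef1g, the gamma subunit of the exchange factor that reloads eEF1A, was likewise higher in all 4 pairs (102 ± 12.8 against 85.8 ± 13.1 CPM; 0.25 ± 0.11, adjusted p = 0.138). Eef2, the translocation factor, had 166, 166, 175 and 163 CPM in AmeloD, against 179, 140, 167 and 118 CPM in Control. The AmeloD values were close together and lay inside the wider Control range (0.17 ± 0.11, adjusted p = 0.338). Eef1b2 was at 43.2 ± 5.83 CPM in AmeloD and 41.8 ± 7.80 CPM in Control, and Eef1a2, the muscle and neuron form of eEF1A, had 0 reads in AmeloD and 3 in Control.

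The surroundings of the called members differed on the chromosomes, in windows chosen after the data were seen. Around Eif1, 113 other genes were tested within 5 Mb on either side, of which 24 rose (21.2%) and 2 fell with AmeloD. Of all genes 9.07% rose and 4.75% fell. In that window 96 genes (85.0%, against 57.0% of all genes) lay above 0 and the median change was 0.28, against 0.05 for all genes. That median lay between 0.27 and 0.34 in the 4 matched pairs. From 20 Mb before Eif1 to the last gene of chromosome 10, 296 genes were tested, of which 72 rose and 5 fell (24.3% higher, median 0.26), against 29 rises and 11 falls among 346 genes on the rest of the chromosome (median 0.06). Eif1 and Eif4a3 lie within that stretch, with changes of 0.32 and 0.42, while Eif4a1 (-0.26) and Eif5a (-0.08) lie outside it. Whole chromosomes other than 10 (median 0.136) were shifted too: 17 had a median of 0.138, 9 of -0.150 and 16 of -0.095, and each holds members. The other autosomes and X had medians of 0.0019 to 0.081. The medians around the eIF3 genes were 0.05 for Eif3f (29 genes, 3 rises and 1 fall), 0.07 for Eif3e (9 genes, 1 rise) and -0.10 for Eif3h (11 genes, 1 fall). Around Eif2s3y no other gene was tested.

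**Figure D4:**
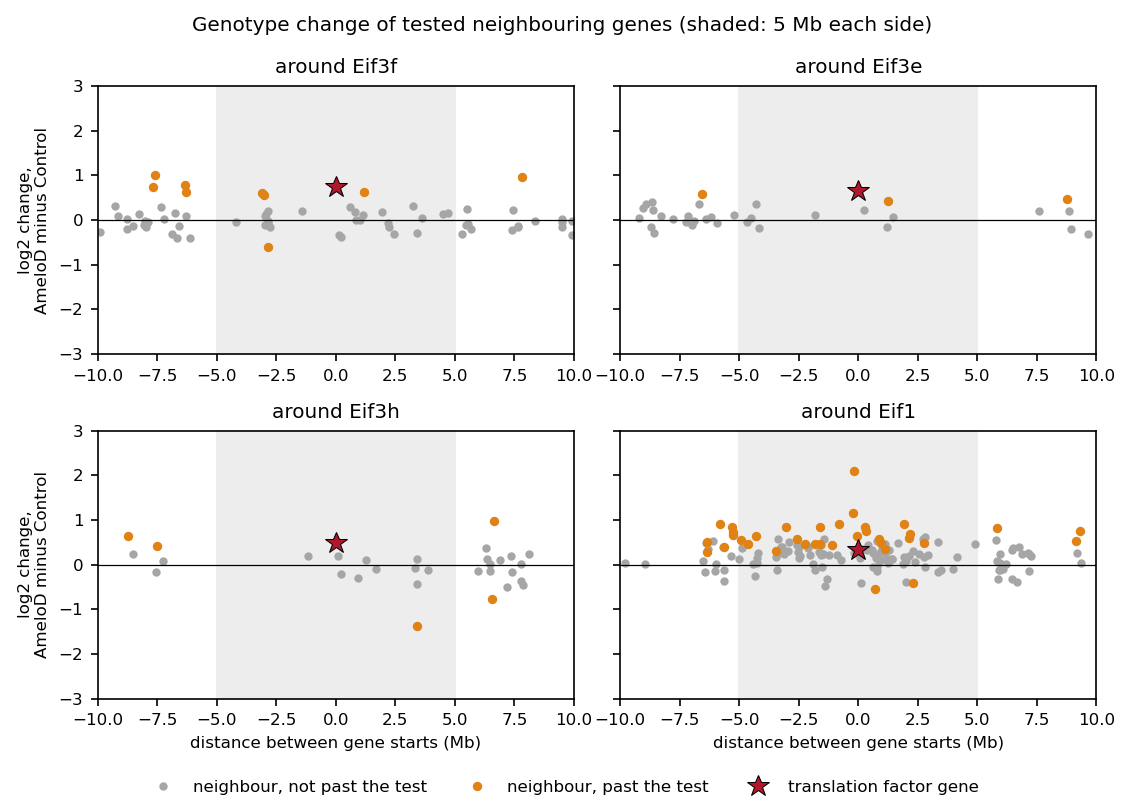
Log2 change, AmeloD minus Control, of tested genes by distance between gene starts (Mb) from each of 4 members that rose (star), with genes past the limma test in orange and the 5 Mb window shaded. Around Eif1 most neighbours lie above 0 (96 of 113), while those around Eif3f, Eif3e and Eif3h lie on both sides of it.

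Over 8 lists of other translation and stress genes, 115 genes were tested, of which 9 rose and 3 fell with AmeloD (10.4%, against 13.8% of all genes). Of 19 tested partners of initiation, 1 rose, 0 fell and 18 did not pass: Pabpc1, the poly(A)-binding protein that joins the mRNA tail to eIF4G, had 289, 242, 209 and 234 CPM in AmeloD, against 171, 151, 187 and 142 CPM in Control. The groups did not overlap and Pabpc1 rose by 0.58 ± 0.10 (adjusted p = 0.000305), also without any 1 library; with TMM Denr fell too (adjusted p = 0.0439). Of 6 enzymes that modify eIF5A or eEF2, 1 fell: Dph6, of diphthamide synthesis, was at 8.76 ± 2.97 CPM in AmeloD and 13.5 ± 1.19 CPM in Control (-0.61 ± 0.15, adjusted p = 0.00641). None of 5 termination and rescue factors passed, and of 16 mTORC1 pathway genes 1 rose (Lamtor2, a part of the lysosomal anchor, 0.32 ± 0.10, adjusted p = 0.0256; 0.0815 with TMM).

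Of 20 tested genes of the integrated stress response, which follows phosphorylation of eIF2 alpha, 5 rose (25%, against 9.07% of all genes), 0 fell and 15 did not pass, with a median of 0.03 and 12 above 0 as deposited. Among those that did not pass were Atf4 (-0.06 ± 0.14), Ddit3 (-0.28 ± 0.16) and Trib3 (-0.35 ± 0.17), with limma adjusted p of 0.838, 0.296 and 0.198. Atf3, a transcription factor, was at 2.39 ± 0.228 CPM in AmeloD and 1.09 ± 0.237 CPM in Control (0.70 ± 0.18, adjusted p = 0.00889), and Asns, asparagine synthetase, at 10.8 ± 1.94 and 6.85 ± 1.02 CPM (0.58 ± 0.15, adjusted p = 0.0112). Cebpb rose by 0.58 ± 0.19, Chac1 by 0.56 ± 0.18 and Gadd45a by 0.47 ± 0.16 (adjusted p 0.0404, 0.0351 and 0.0476), and these 3 calls were lost under TMM scaling (adjusted p 0.0501, 0.0526 and 0.0620). That scaling left 2 rises and added 1 fall, of the serine hydroxymethyltransferase gene Shmt2 (adjusted p = 0.0243; 0.0527 as deposited). Of 21 aminoacyl-tRNA synthetase genes 1 rose (Gars1, 0.54 ± 0.13, adjusted p = 0.00568; with TMM Farsa also fell, adjusted p = 0.0234) and of 5 mitochondrial translation factors 1 rose (Tufm, 0.48 ± 0.16, adjusted p = 0.0442; 0.0777 with TMM). Of 25 ribosome biogenesis genes 0 rose and 2 fell (8%, against 4.75% of all genes): Gar1 of the pseudouridine-forming particles (-0.60 ± 0.15, adjusted p = 0.00637) and Ncl, nucleolin (-0.36 ± 0.11, adjusted p = 0.0245). As deposited, 6 of the 25 lay above 0, against 57.0% of all genes. With TMM scaling 5 fell, the others being Ltv1, Bysl and Polr1c (adjusted p 0.0338, 0.0397 and 0.0479), and 474 of all 6849 genes fell. With each of the 8 libraries omitted in turn, Atf3, Gars1 and Gar1 passed every time, while Dph6 passed 7 times, Asns 5, Lamtor2 and Chac1 3, Gadd45a, Tufm and Ncl 2 and Cebpb 1. No gene of these 8 lists passed the TGF or the plasmid test.

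Between TGF and N libraries, 0 of 58 members passed, against 1.81% of all genes in limma (1.53% higher and 0.277% lower). An unadjusted p under 0.05 was had by 2 members, against 11.9% of all genes (edgeR and DESeq2 each called 0 members). The median change was -0.03, against 0.04 for all genes. As deposited 26 members lay above 0, against 58.2% of all genes. Under the other scalings 17 to 20 members lay above 0. The members' median was then -0.07 to -0.10, against -0.008 to -0.020 for all genes. Eif4g2 had the lowest adjusted p among members (49.6 ± 5.08 CPM in TGF and 41.5 ± 7.49 CPM in N libraries; 0.26 ± 0.12, adjusted p = 0.384). Eif3c was the other member with an unadjusted p under 0.05, at 60.1 ± 15.3 CPM in TGF and 49.3 ± 0.946 CPM in N libraries, its spread being that of the AmeloD pCMV6.ODAM TGF library. A p that misses the threshold does not show that levels were equal with TGF and N.

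Between pCMV6.ODAM and pCMV6 libraries, 0 members passed, as did 0 of all genes in limma (5 members had an unadjusted p under 0.05, against 6.63% of all genes; edgeR and DESeq2 called 0 members). The median was 0.09, against 0.03 for all genes. As deposited 46 of 58 members lay above 0, against 56.9% of all genes. Under the other scalings 39 to 42 members did so. Values of the lowest adjusted p (0.710) were shared by Eif2b3 (21.7 ± 6.22 CPM in pCMV6.ODAM and 15.9 ± 1.52 CPM in pCMV6), Eif2b2 (2.32 ± 0.923 and 1.47 ± 0.669 CPM), Eif3c (60.9 ± 14.3 and 48.5 ± 2.09 CPM) and Eif3a (36.1 ± 3.65 and 45.6 ± 10.1 CPM). Of these only Eif3a was lower in pCMV6.ODAM.

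**Figure D5:**
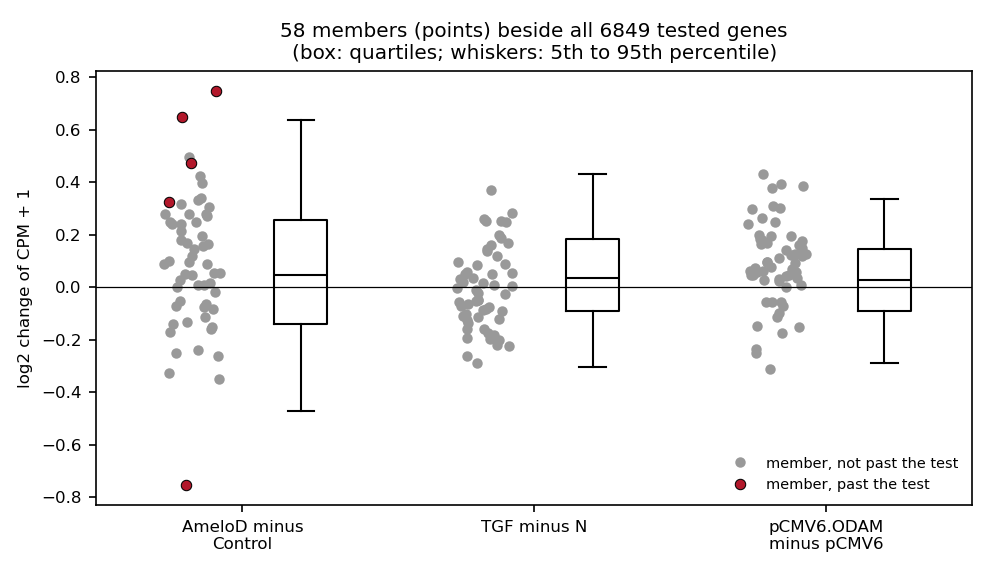
Log2 change of CPM + 1 of the 58 members (points, red where past limma's adjusted p of 0.05) beside all 6849 tested genes (boxes are quartiles, whiskers the 5th and 95th percentiles) for AmeloD minus Control, TGF minus N and pCMV6.ODAM minus pCMV6. Red points occur for genotype only (5 of 58).

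No member passed a test of interaction between any pair of factors (limma; genotype by TGF 0.0146% of all genes, genotype by plasmid 0% and plasmid by TGF 0%). Unadjusted p values under 0.05 were had by 3, 4 and 11 members in these 3 tests, against 4.12%, 4.50% and 7.36% of all genes, and edgeR and DESeq2 called 0 members in each. These fits had 3 residual degrees of freedom, and a p that misses the threshold does not show that the effects were alike. For plasmid by TGF the members' median was 0.23, against 0.16 for all genes, and it dropped to 0.06 with TMM scaling, which moved the median of all genes by -0.16. Eef1e1, a scaffold protein of the synthetase complex, had the largest such term (1.40 ± 0.37, adjusted p = 0.578). It had 2.18, 1.26, 1.90 and 1.20 CPM in AmeloD and 2.32, 0.880, 2.79 and 0.788 CPM in Control, so the pCMV6 N and pCMV6.ODAM TGF libraries were the high ones in both genotypes.

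Across the members, 29 of 58 (50%, against 34.4% of all genes) had their highest AmeloD value in the pCMV6.ODAM TGF library and 3 in pCMV6 TGF (5.17%, against 21.2% of all genes). In Control, 22 members (37.9%, against 42.6% of all genes) were highest in pCMV6.ODAM TGF and 6 in pCMV6 TGF (10.3%, against 15.2%). The lowest value was that of pCMV6 TGF for 27 members in AmeloD (46.6%, against 25.7% of all genes) and for 27 in Control (46.6%, against 32.1%). These counts rest on 1 library per combination and carry no test.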

How the data were processed

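Total RNA with an integrity number of at least 9.0 was made into 3'-end libraries and read as 150-base paired ends, per the labels' protocols. Reads were trimmed, aligned with STAR 2.7.10a to mRatBN7.2 and counted with featureCounts 2.0.1, per the submitters' processing notes. The labels do not state strand setting, molecular identifiers or handling of shared reads. Values were deposited as CPM per gene, scaled to library totals of which 15.6% to 17.5% lie in the table. All values (100%) were whole reads within 0.01, so reads were recovered. A count of 0 allows 3 reads (0.169 to 0.284 CPM).

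Differences were tested on log2(CPM + 1) with limma 3.58.1 (R 4.3.3; eBayes trend) in a model adding genotype, plasmid and TGF label (4 residual degrees of freedom, which also hold interactions), two-sided, Benjamini-Hochberg over 6849 genes. edgeR 4.0.16 on the recovered reads called 957 genes for genotype and DESeq2 1.42.0 called 777, against 946 by limma. Further alternatives were scalings, pseudocounts, filters, omitted libraries, subsets and matched pairs. Named members were those past the test and a list of central factors; members and lists were chosen with earlier results of these data known. Intervals cover counting error only. Values of some listed marker genes are not reported here.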

Additional observations from a re-analysis of the deposited data

Results flagged for a closer look

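In the 48 groups of 4 libraries checked among named members, 2 values stood apart by Dixon's 95% criterion for 4 samples, which chance meets in about 1 of 20 groups. Eif1 in Control was at 98.4 CPM in the pCMV6.ODAM TGF library, against 81.6 to 83.9 CPM in the other 3, a gap of 0.865 of the range. Eif2s3y in Control was at 5.39 CPM in the same library, against 3.88 to 4.01 CPM in the other 3, a gap of 0.918 of the range. Without that library Eif1 and Eif2s3y both still passed the genotype test.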

How the results depend on the processing

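As deposited, 4 members rose and 1 fell with AmeloD. The count of rises was 1 in the TGF libraries alone and 1 in the pCMV6.ODAM libraries alone, and 2 to 5 with each library omitted in turn. The count of falls was 2 with TMM, the same median, DESeq2, the N libraries alone or the pCMV6 libraries alone, 0 among genes averaging 5 CPM or more, the TGF libraries alone or the pCMV6.ODAM libraries alone, and 0 to 1 with each library omitted in turn; the filter removed Eif2s3y, the subsets hold fewer libraries, and otherwise the cause was not tested. With the 4 matched pairs as a block, 5 members rose and 1 fell. The labels give no replicate numbers. Of the recomputed values, 609 kept direction and side of the threshold (or, for counts, stayed within 1.5 times), 25 lost the call, 5 gained it, 14 counts moved and 36 changed sign, all of members that did not pass as deposited; the cause was not tested. In log2 change, Eif2ak4 was at -0.043 with TMM, -0.065 with the same median, -0.0075 scaled to the reads in the table, -0.072 with edgeR, -0.052 with DESeq2, -0.18 in the N and -0.52 in the pCMV6.ODAM libraries alone. Eif6 was at -0.021 with TMM, -0.029 with the same median, -0.014 with edgeR, -0.018 with DESeq2 and -0.21 in the pCMV6 libraries alone. In the N libraries alone Eif2s1 was at 0.11, Eif2ak1 at 0.063 and Eif4g1 at 0.017; in the TGF libraries alone Eif4g2 was at 0.064 and Eif5a at 0.051; in the pCMV6 libraries alone Eif4g1 was at 0.21, Eif4g2 at 0.013 and Eif4ebp2 at -0.0090; in the pCMV6.ODAM libraries alone Eif5a was at 0.046 and Eif3a at -0.092. With each library omitted in turn, the change ranged from -0.17 to 0.052 for Eif2ak1, -0.17 to 0.28 for Eif2ak4, -0.0021 to 0.15 for Eif4ebp2, -0.16 to 0.068 for Eif4g1, -0.19 to 0.040 for Eif5a and -0.060 to 0.15 for Eif6. With 1 library per combination, low members rest on few reads: 9 had a mean under 2 CPM.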
